A study of Mus musculus with 7 samples.

Results

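Cadherins are calcium-dependent adhesion molecules of the cell surface. Classical cadherins bind the same or a related cadherin on the neighbouring cell through their outer domains, and are tied to the actin cytoskeleton inside the cell by catenins. They fall into type I, the group of E-, N-, P- and R-cadherin, and type II, a larger group of which many members are known from the nervous system. Snail, the product of Snai1, is a zinc finger repressor that binds E-box sequences, and its best known target is the E-cadherin gene Cdh1. A fall of E-cadherin with a rise of N-cadherin is a textbook sign of the epithelial-mesenchymal transition.

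The cadherin genes examined were 10 in number, Cdh9, Cdh1, Cdh2, Cdh3, Cdh4, Cdh5, Cdh6, Cdh10, Cdh11 and Cdh13. Cdh9 was chosen from its signal in HM-1-shSnail cells against HM-1-control cells, the other 9 as its relatives. Its levels in these groups are therefore a description, with no test. Each of the 10 genes had 1 transcript cluster, the array's unit for a gene, that carried its symbol alone, among 30473 such clusters of 65770 in all. Not all 10 are classical cadherins in the strict sense: T-cadherin, the product of Cdh13, is held in the membrane by a lipid anchor and lacks the catenin-binding tail.

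HM-1 cells are an established line from a mouse ovarian cancer. Those stably carrying 1 of 2 lentiviral short hairpins against Snail, sh1 (n = 2) or sh2 (n = 2), together called shSnail (n = 4), were compared with cells carrying a non-silencing hairpin, the control (n = 3). The RNA of each culture was read on 1 Affymetrix mouse transcriptome array, which gave 1 log2 signal per cluster. The samples of a group are labelled biological replicates, but nothing states that the cells of a hairpin were made more than once, so p-values measure the spread between these samples.

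The hairpin targets, as the labels give them, are shown because they define the groups, and both are directed at Snai1 on chromosome 2:
sh1: AGTTTATTGATATTCAATA
sh2: TGGTTAATTTATATACTAA

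The array did not record a loss of the Snai1 transcript. Its log2 signal was 6.80 and 6.55 with sh1 and 6.69 and 6.77 with sh2, against 6.61, 6.69 and 6.70 in control, and the groups overlapped (adjusted p = 0.85, limma). The paper calls these cells Snail-depleted and blotted nuclear Snail protein, which the arrays do not measure. The directions below rest on the arrays as labelled. The median of the 5222 negative controls was 4.92 to 5.20 on the shSnail arrays and 4.83 to 4.86 on the control arrays. The 95th percentile of their means over the 7 arrays was 7.97, and 27.2% of all clusters with 1 symbol had a mean above it. Values below this percentile were not clearly above background, and the size of a fold change that involves one is uncertain. Of the 8 epithelial markers, Krt8, Krt18 and Krt19 lay above it and Epcam did not, and of the 6 mesenchymal markers Vim, Fn1, S100a4 and Sparc did. Of these, Fn1 averaged 14.38 in shSnail and 13.24 in control (adjusted p = 0.12) and S100a4 11.93 and 12.36 (adjusted p = 0.14, limma). Vim averaged 17.89 in shSnail and 17.88 in control (adjusted p = 0.71, limma), and Sparc 13.28 and 13.27. S100a4 was lower with sh2 by the test (log2 fold change -0.54, adjusted p = 0.044, limma), though in 0 of 7 settings with 1 array left out (0.073 to 0.16).

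Cdh9, a type II cadherin known from synapses of the mouse retina and hippocampus, was the cadherin with by far the widest spread between the groups. Its log2 signal was 8.23 and 8.24 with sh1 and 8.36 and 7.78 with sh2, against 5.36, 5.10 and 5.15 in control. All 4 shSnail arrays lay above all 3 control arrays, and the lowest shSnail array was 2.42 above the highest control array on the log2 scale. The mean was 8.15 ± 0.25 in shSnail (SD, n = 4) and 5.20 ± 0.14 in control (SD, n = 3). On the log2 scale shSnail was 2.95 above control (standard error 0.15), which is 7.71-fold. Only 3 of the 65770 clusters, Cdh9 among them, had a fold change at least as high. The control mean lay above 59.8% of the negative controls and the shSnail mean above 95.1% of them.

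Cdh9 was above control with either hairpin. Set against the 95th percentile of the negative controls of the same array, both sh1 arrays lay above it (8.07 and 8.05) and both sh2 arrays below it (8.39 and 8.35), and the sh2 mean exceeded 94.1% of the negative controls. The log2 fold change against control was 3.03 with sh1 and 2.87 with sh2, both against the same 3 control arrays. The order of the means was sh1 at 8.23, sh2 at 8.07 and control at 5.20. The sh1 and sh2 levels were not told apart: sh2 minus sh1 was -0.16 (95% confidence interval -0.71 to 0.39, standard error 0.21, adjusted p = 0.89, limma). The second sh2 array was the lowest of the 4 shSnail arrays, and the sh2 fold change was 3.16 without it and 2.58 without the first sh2 array.

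**Figure D1:**
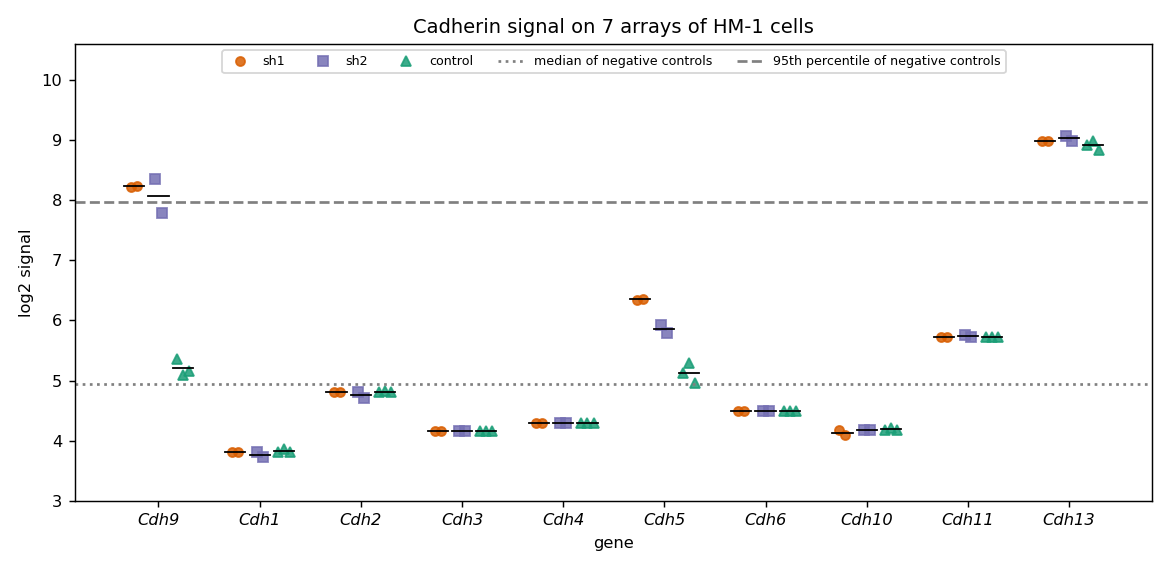
Log2 signal (vertical axis) of the 10 cadherin genes (horizontal axis) on each array, with sh1, sh2 and control from left to right for each gene. Points are arrays, bars are group means, and the dotted and dashed lines are the median (4.94) and 95th percentile (7.97) of the negative controls. Cdh9 stands at 7.78 to 8.36 in shSnail and 5.10 to 5.36 in control, Cdh5 shows a smaller gap, and the other 8 genes hold nearly the same level on all arrays.

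Cdh9 lies on chromosome 15 in a run of type II cadherin genes, with Cdh6 before it and Cdh10 and then Cdh12 after it as the next measured protein-coding genes. Its promoter, as taken here, runs from 250 bases before to 50 after the gene start in RefSeq (build GRCm38.p6). It is shown beside that of Cdh6 because the neighbours share a stretch of sequence. Capitals mark E-boxes, CANNTG, the core that Snail and many other factors can bind. Cdh9 is at chr15:16728665-16728964 on the plus strand and Cdh6 at chr15:13173626-13173925 on the minus strand, each written 5′ to 3′ along its gene:
Cdh9: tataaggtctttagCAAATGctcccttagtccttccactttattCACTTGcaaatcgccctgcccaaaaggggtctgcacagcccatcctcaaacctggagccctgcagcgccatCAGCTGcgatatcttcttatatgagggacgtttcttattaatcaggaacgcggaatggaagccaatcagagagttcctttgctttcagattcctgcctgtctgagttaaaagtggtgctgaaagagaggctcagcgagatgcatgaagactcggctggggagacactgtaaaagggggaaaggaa
Cdh6: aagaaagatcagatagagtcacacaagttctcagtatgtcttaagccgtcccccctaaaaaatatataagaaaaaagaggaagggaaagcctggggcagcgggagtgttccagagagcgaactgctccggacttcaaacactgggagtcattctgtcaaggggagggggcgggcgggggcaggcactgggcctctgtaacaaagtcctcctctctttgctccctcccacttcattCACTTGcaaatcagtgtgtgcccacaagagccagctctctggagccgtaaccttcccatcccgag

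The promoters of 3 of the 10 genes, Cdh6, Cdh9 and Cdh10, were in the RefSeq table used. The Cdh9 promoter holds 3 E-boxes, of which the first base lies 236, 206 and 135 bases before the gene start. That of Cdh6 holds 1 and that of Cdh10 holds 5. At least 1 E-box of the form CANNTG stands in 72.3% of 32851 promoters of this length. The letters CAGGTG, on either strand (CACCTG on the other), the form classically tied to Snail, were found in 20.2% of these promoters and in 0 of the 3, which says only that they are not in this window. Cdh9 and Cdh6 share a run of 15 bases, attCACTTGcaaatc, 209 bases before the start of Cdh9 and 18 before that of Cdh6, and of the 32851 promoters these 2 hold it on either strand. GC made up 48.7% of the Cdh9 promoter, 53.0% of that of Cdh6 and 37.7% of that of Cdh10, with a median of 52.7% over all promoters.

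The genes next to Cdh9 did not pass the test. Cdh6, the K-cadherin of the developing kidney and in human a surface antigen of ovarian carcinoma, was listed at 4.49 on all 7 arrays. Cdh10, a type II cadherin of the brain, was at 4.18 and 4.09 with sh1 and 4.18 and 4.18 with sh2, against 4.18, 4.22 and 4.18 in control. The values overlapped, and the log2 fold change was -0.04 (standard error 0.03, adjusted p = 0.65, limma). Cdh12 was at 3.94 on each shSnail array, against 3.94, 3.98 and 3.94 in control. Cdh18, another brain cadherin a little further along the chromosome, ranged between 3.95 and 4.08 in shSnail and between 4.05 and 4.08 in control. Cdh6, Cdh10, Cdh12 and Cdh18 all lay below the negative-control median, so a change in them was not detectable at this level. The nearest measured genes of any kind, the small RNA genes Gm25550 and Gm24713, had log2 fold changes of 0.03 (adjusted p = 0.89) and 0.25 (adjusted p = 0.65, limma).

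**Figure D2:**
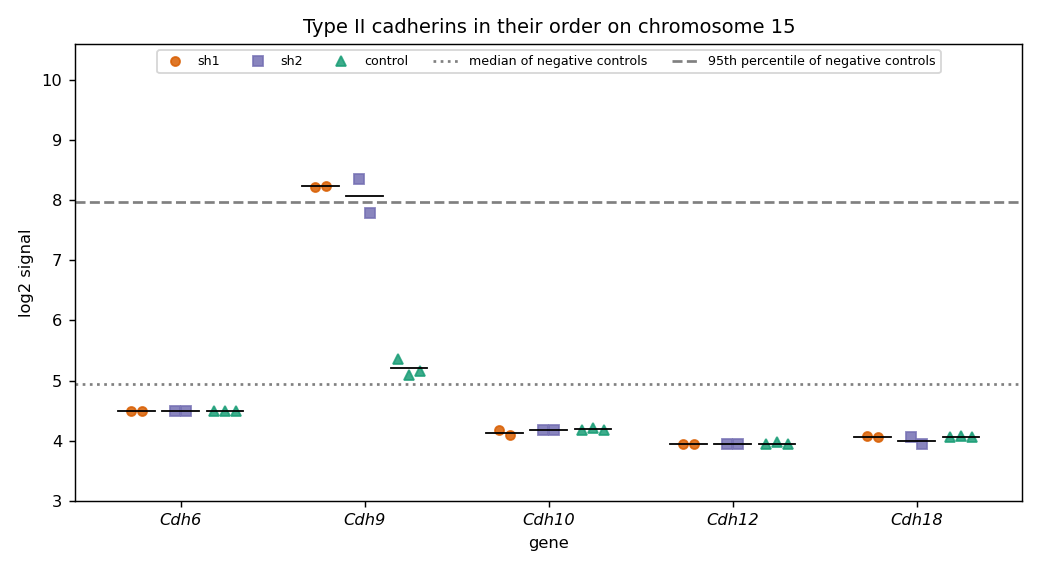
Log2 signal (vertical axis) of the type II cadherin genes of chromosome 15 in their order along it (horizontal axis, not to scale), with sh1, sh2 and control from left to right for each gene. Points are arrays, bars are group means, and lines are the median and 95th percentile of the negative controls. Only Cdh9 of the 5 genes plotted separates the groups, and the other 4 stay below the negative-control median on every array.

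Cdh11, the type II cadherin of osteoblasts and other mesenchymal cells, lay at 5.72 on 6 of the 7 arrays and at 5.76 on the first sh2 array. Its mean over the arrays was above 69.2% of the negative controls, and its log2 fold change was 0.01 (standard error 0.01, adjusted p = 0.75, limma).

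The type I cadherins gave signals below the negative-control median, with fold changes near 0. Cdh1, which encodes E-cadherin, the adhesion molecule of epithelial cells, had a log2 signal of 3.81 and 3.81 with sh1 and 3.81 and 3.73 with sh2, against 3.81, 3.86 and 3.81 in control. No shSnail array exceeded the control arrays, and the second sh2 array was the lowest. The log2 fold change was -0.04 (standard error 0.03, 95% confidence interval -0.10 to 0.03, adjusted p = 0.64, limma). The mean Cdh1 signal of control lay above only 21.2% of the negative controls, so this cluster was not clearly above background in either group and a change at this level was not detectable. At the protein level, the paper reports more E-cadherin and less vimentin in HM-1-shSnail cells by western blot.

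Cdh2, which encodes N-cadherin, the cadherin of neural and mesenchymal cells, was at 4.81 and 4.81 with sh1 and 4.81 and 4.72 with sh2, against 4.81, 4.83 and 4.81 in control. Again the second sh2 array was the lowest and the rest were nearly equal. The log2 fold change was -0.03 (standard error 0.03, 95% confidence interval -0.10 to 0.04, adjusted p = 0.69, limma). Cdh3, the P-cadherin of basal epithelia, and Cdh4, the R-cadherin first described in retina, were listed at 4.17 and 4.30 on all 7 arrays. Equal values of this kind were common in the table. All 7 values agreed to 5 decimals in 4.59% of clusters, in 8.06% of clusters with 1 symbol and in 3 of the 10 cadherin genes. At least 4 of 7 agreed in 38.7% of clusters and in 7 of the 10 genes.

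Cdh5, which encodes VE-cadherin of endothelial junctions, was the second cadherin in which the groups stood apart. Its log2 signal was 6.34 and 6.36 with sh1 and 5.92 and 5.79 with sh2, against 5.12, 5.29 and 4.96 in control. All shSnail arrays lay above all control arrays, the sh1 pair above the sh2 pair. The mean was 6.10 ± 0.29 in shSnail (SD, n = 4) and 5.12 ± 0.16 in control (SD, n = 3). The difference of 0.98 on the log2 scale (95% confidence interval 0.54 to 1.42, standard error 0.18) did not pass the test (unadjusted p = 0.00172, adjusted p = 0.12, limma). Against the same control arrays the log2 fold change was 1.23 with sh1 (standard error 0.11, adjusted p = 0.056) and 0.73 with sh2 (standard error 0.11, adjusted p = 0.069, limma, 3 groups).

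The Cdh5 level of sh2 was lower than that of sh1 by 0.50 on the log2 scale, within a 95% confidence interval of -0.80 to -0.19 for the difference, but not past the test over all clusters (adjusted p = 0.48, limma). Whether Cdh5 passed for shSnail depended on the fit: the adjusted p was 0.035 when sh1, sh2 and control were fitted as 3 groups. Centring each array on its negative controls gave a log2 fold change of 0.77 (adjusted p = 0.0028), with the median of all clusters at -0.21. The negative controls themselves were higher in shSnail than in control by a median of 0.18 on the log2 scale, and their part in the Cdh5 difference was not tested. The Cdh5 means lay above 74.5% of the negative controls in shSnail and 58.0% in control. The other endothelial markers, Pecam1, Kdr, Tek, Tie1, Vwf and Emcn, were all 6 below the negative-control median, with a mean log2 signal of 4.33 to 4.36 on the shSnail arrays and 4.34 on each control array.

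Cdh13 was the only one of the 10 genes with a control mean above the 95th percentile of the negative controls. T-cadherin binds adiponectin and lipoproteins. Its log2 signal was 8.99 and 8.99 with sh1 and 9.07 and 8.99 with sh2, against 8.91, 8.98 and 8.84 in control. The groups did not overlap, but the gap between them was 0.003 on the log2 scale. The log2 fold change was 0.10 (standard error 0.04, 95% confidence interval -0.0047 to 0.19, adjusted p = 0.51, limma), so no change was established.

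Counted together, 0 of the 9 genes other than Cdh9 passed an adjusted p under 0.05 in either direction for shSnail, sh1 or sh2 against control (limma). Over all clusters, 0.21% were higher and 0.432% lower for shSnail, 0.0517% higher and 0.0821% lower for sh1, and 0.809% higher and 0.477% lower for sh2. At an unadjusted p under 0.05 only Cdh5 was higher in each of the 3 comparisons, 1 of 9, and 0 were lower. The shares of all clusters at that level were 5.45% higher and 4.65% lower for shSnail, 3.91% and 3.43% for sh1, and 6.48% and 4.21% for sh2, in the same order. For sh2 against sh1, 0 of the 10 genes passed, as did 0% of all clusters in each direction, and at an unadjusted p under 0.05 only Cdh5 was lower, against 3.74% of clusters higher and 2.26% lower. Groups without overlap were seen in 2 of the 9 genes, Cdh5 and Cdh13, both higher in shSnail, and in 5.08% of all clusters higher and 4.01% lower. Cdh9, chosen from this contrast, is not counted. The median log2 fold change was 0 over the 9 genes and 0 over all clusters. Of the 9, 3 had equal values on all 7 arrays and could not pass on the deposited values. With these 3, 6 had a mean under the negative-control median. The counts and the median therefore do not show that these genes were unchanged.

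**Figure D3:**
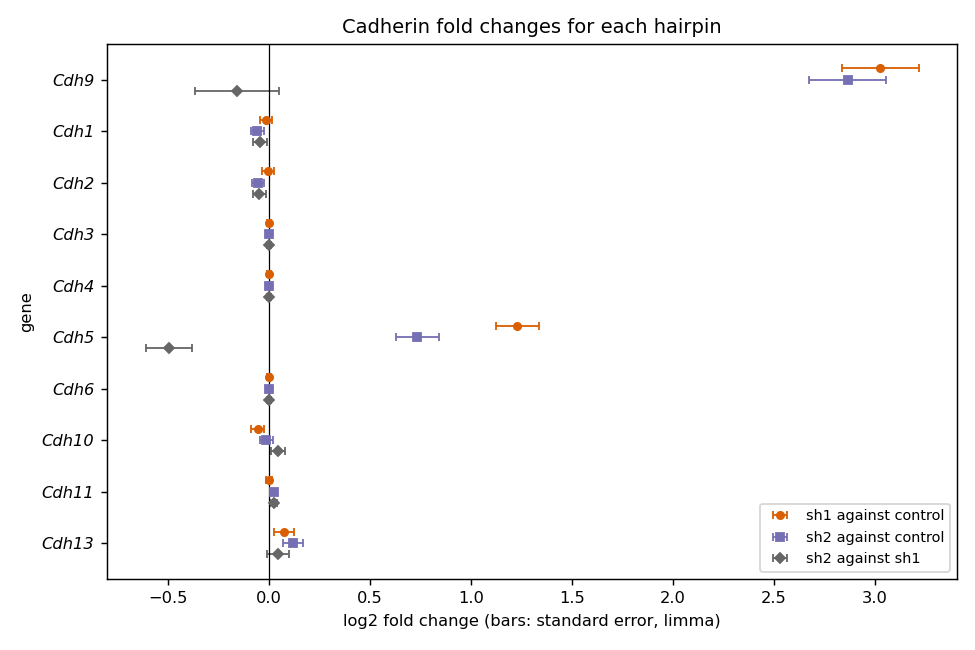
Log2 fold change (horizontal axis) of each cadherin gene (vertical axis) for sh1 against control, sh2 against control and sh2 against sh1. Points are limma estimates and bars are 1 standard error. Cdh9 is near 3 for both hairpins, Cdh5 is at 1.23 and 0.73, and the other 8 genes lie close to 0.

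The rest of the family was mostly near background as well. None of the 18 other CDH genes measured had a mean above the 95th percentile of the negative controls. Of all clusters with 1 symbol, 27.2% had a mean above it. Of the 18 genes, 0 passed the test in either direction (1 higher at an unadjusted p under 0.05, against 5.45% of all clusters). That one was Cdh17, the liver-intestine cadherin, at 7.39 and 7.57 with sh1 and 7.38 and 7.53 with sh2, against 7.02, 6.96 and 6.80 in control. Its groups did not overlap, and the log2 fold change was 0.54 (standard error 0.07, adjusted p = 0.060, limma). The median over the 18 genes was 0.

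The catenins and their partners were mostly above background. Of 16 measured genes, 12 lay above the 95th percentile of the negative controls, against 27.2% of all clusters with 1 symbol. Ctnnb1, the gene of beta-catenin, was not among the 16. For shSnail 0 passed the test (median log2 fold change 0.001). At an unadjusted p under 0.05, 3 were higher and 1 lower, against 5.45% and 4.65% of all clusters. Ctnna1, the alpha-catenin that links cadherins to actin, was at 14.34 on the 4 shSnail arrays and at 14.34, 14.34 and 14.33 in control. Ctnnd1, the p120-catenin that holds cadherins at the surface, averaged 10.99 in shSnail and 10.92 in control (adjusted p = 0.63), and Jup, the plakoglobin of both junction types, 9.93 and 9.84 (adjusted p = 0.51, limma).

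The largest difference in this list was that of Ajuba, a LIM protein of the junctional complex, at 9.73 and 9.68 with sh1 and 9.65 and 10.26 with sh2, against 9.26, 9.12 and 9.23 in control. All shSnail arrays were above control, the second sh2 array most, by 0.63 in the mean (standard error 0.16 in log2 units, adjusted p = 0.27, limma). With sh2 alone, 1 gene of the list was lower, against 0.477% of all clusters. It was Magi1, a scaffold protein of the junction, which averaged 8.09 with sh2 and 8.47 in control (log2 fold change -0.37, adjusted p = 0.047, limma). It passed in 0 of 7 settings with 1 array left out (0.081 to 0.15). It was -0.28 with sh1 (adjusted p = 0.17), and sh2 did not differ from sh1 past the test (adjusted p = 0.80, limma).

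Desmosomal genes, the desmogleins, desmocollins and their plaque proteins, were above the 95th percentile of the negative controls in 2 of 14, Pkp2 and Perp. Of all clusters with 1 symbol, 27.2% were above it. Of the 14 genes, 0 passed the test (median -0.003, 1 higher at an unadjusted p under 0.05, against 5.45% of all clusters). Perp, a membrane protein of the desmosome, had the largest log2 difference, 0.17 (standard error 0.13, adjusted p = 0.64, limma), with overlapping groups.

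Of 24 protocadherins and atypical cadherins, 1 lay above that percentile, against 27.2% of all clusters with 1 symbol. It was Fat1, the giant cadherin of the Hippo and planar polarity pathways. Its log2 signal was 11.98 and 11.98 with sh1 and 12.63 and 12.52 with sh2, against 11.35, 11.55 and 11.49 in control. The groups were separate, sh2 the highest. The log2 fold change for shSnail was 0.82 (standard error 0.20, adjusted p = 0.23, limma), and 0 of the 24 passed there (median 0). At an unadjusted p under 0.05, 2 were higher and 2 lower, against 5.45% and 4.65% of all clusters. For sh2 1 of the 24 passed, Fat1, against 0.809% of all clusters higher. Fat1 rose with sh2 by 1.12 (adjusted p = 0.025), and passed in 3 of 7 settings with 1 array left out, those without the third control array or either sh2 array (0.023 to 0.10). It was 0.52 above control with sh1 (adjusted p = 0.12), and the difference of sh2 from sh1, 0.60, did not pass (adjusted p = 0.35, limma).

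**Figure D4:**
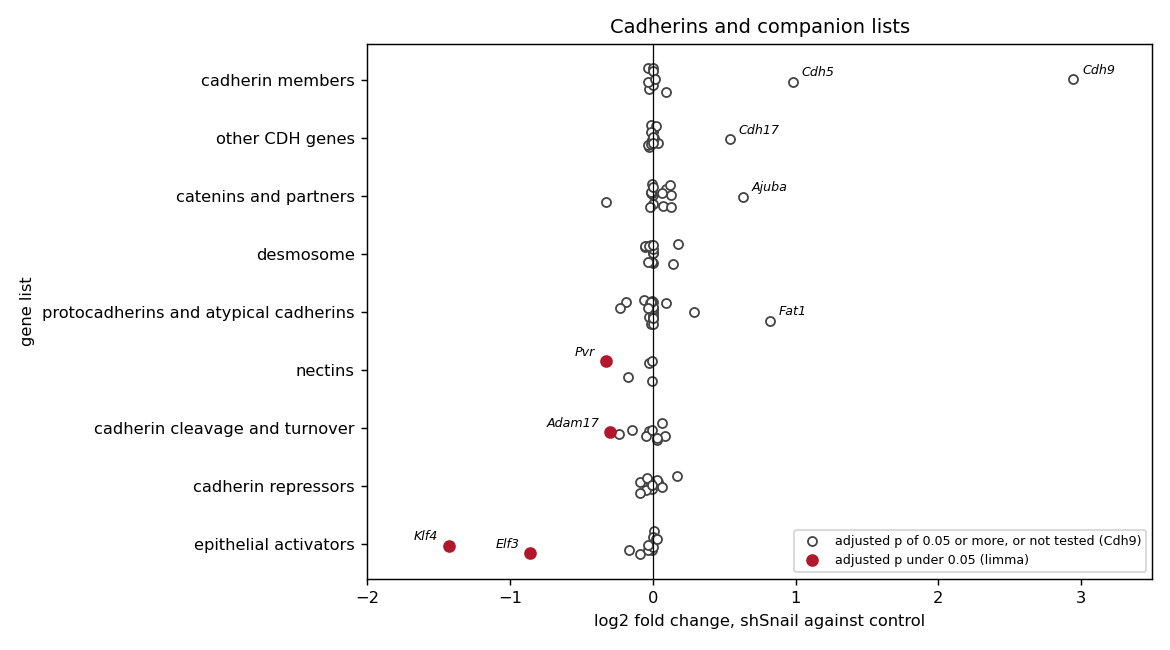
Log2 fold change of shSnail against control (horizontal axis) for each measured gene of the cadherin group and of 8 related lists (vertical axis, spread within a list only for legibility). Filled points passed an adjusted p under 0.05 (limma), and Cdh9 was not tested. Pvr, Adam17, Klf4 and Elf3 passed, all lower in shSnail, and most other genes lie near 0.

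Nectins and their relatives are adhesion molecules that work beside cadherins at the junction. Among 5 genes, Nectin1, Nectin2, Nectin3, Nectin4 and the nectin-like Pvr, 1 fell, Pvr, against 0.432% of all clusters. At an unadjusted p under 0.05, 0 of the 5 were higher and 2 lower, against 5.45% and 4.65% of all clusters. Pvr, the poliovirus receptor, was at 10.82 and 10.72 with sh1 and 10.83 and 10.82 with sh2, against 11.18, 11.15 and 11.06 in control. The groups did not overlap (log2 fold change -0.33, standard error 0.04, adjusted p = 0.042, limma). Among 10 genes of cadherin cleavage and turnover, 1 fell, against 0.432% of all clusters. It was Adam17, a protease that sheds membrane proteins, at 12.01, 12.05, 12.00 and 11.99 in shSnail, against 12.37, 12.33 and 12.25 in control. The log2 fold change was -0.30 (standard error 0.03, adjusted p = 0.031, limma). Adam10, the protease that cuts E- and N-cadherin, averaged 14.21 in shSnail and 14.13 in control, without overlap (unadjusted p = 0.0144, adjusted p = 0.33, limma). At an unadjusted p under 0.05, 2 of the 10 cleavage and turnover genes were higher and 3 lower, against 5.45% and 4.65% of all clusters.

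Of 11 transcription factors known to repress Cdh1, 0 passed the test (0 at an unadjusted p under 0.05, median -0.01). Zeb2 was not among the 11. Above the 95th percentile of the negative controls lay 3, Zeb1, Twist2 and Tcf3, against 27.2% of all clusters with 1 symbol. Twist2 had the largest difference, 0.17 (standard error 0.12, adjusted p = 0.63, limma), at 12.27 in shSnail and 12.10 in control with overlapping groups. Of 12 factors that keep epithelial genes active, 2 fell and 0 rose (median -0.02). Over all clusters 0.432% were lower and 0.21% higher. Klf4, a Krüppel-like factor, was at 7.51 and 7.53 with sh1 and 7.11 and 7.30 with sh2, against 8.90, 8.72 and 8.76 in control (log2 fold change -1.43, standard error 0.12, adjusted p = 0.015, limma). Elf3, an epithelial ETS factor, was at 5.71 and 5.70 with sh1 and 5.71 and 5.44 with sh2, against 6.61, 6.45 and 6.43 in control (log2 fold change -0.86, standard error 0.09, adjusted p = 0.026, limma). Both genes were separate between the groups. Klf4 is in the paper's own list of lower genes from these arrays, so the count of 2 is only a description. The 4 shSnail values of Klf4 lay below the negative-control 95th percentile, as did Elf3 on every array, so the sizes of both folds are uncertain.

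With 1 array left out at a time, most of these 4 calls were lost whichever array was removed, while the log2 fold changes stayed between -0.37 and -0.31 for Pvr, -0.34 and -0.28 for Adam17, -0.89 and -0.79 for Elf3 and -1.49 and -1.35 for Klf4. Pvr passed in 0 of the 7 settings (adjusted p 0.065 to 0.16) and Adam17 in 1, without the third control array (0.033 to 0.13). Elf3 passed in 1, without the second sh2 array (0.031 to 0.11), and Klf4 in 2, without the second sh1 or the first sh2 array (0.025 to 0.081, limma).

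Neuronal genes were looked at because Cdh9 is best known from neurons. Of 6 markers, Rbfox3, Syp, Stmn2 and Elavl3 lay below the negative-control median, while the means of Tubb3 and Snap25 over the 7 arrays lay above the 95th percentile, that of Tubb3 only through control. Tubb3, a tubulin also found in many tumour cells, averaged 7.69 in shSnail and 8.75 in control (adjusted p = 0.13), and Snap25, a protein of vesicle fusion, 10.35 and 9.95 (adjusted p = 0.45, limma). The groups did not overlap in either gene, with Tubb3 lower and Snap25 higher in shSnail. The mean log2 signal over the 6 combines these opposite differences. It was 5.81 to 5.86 on the shSnail arrays and 5.93 to 5.95 on the control arrays, and its part in the Cdh9 difference was not tested.

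The clusters whose pattern was most like that of Cdh9 were sought by Pearson's r over the 7 arrays, among 192 with 1 symbol, a standard deviation of at least 0.5 and a mean above the median of the negative controls. The groups differ in Cdh9, so the measure mostly finds genes that differ between the groups, and it is given as a description. The highest were Iqgap2, an IQGAP scaffold protein (r = 0.996), Cavin2, a coat protein of caveolae (0.994), Rapgef5, an exchange factor of Rap (0.993), Crim1, a membrane protein that binds BMPs (0.989) and Aldh1a1, a retinaldehyde dehydrogenase (0.987). The lowest were Sele, the leukocyte adhesion molecule E-selectin (-0.996), Gdpd5, a glycerophosphodiester phosphodiesterase (-0.996), and 1700049E17Rik1 (-0.995). In all, 29 of the 192 had an r of at least 0.9 and 105 one of -0.9 or below.

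**Figure D5:**
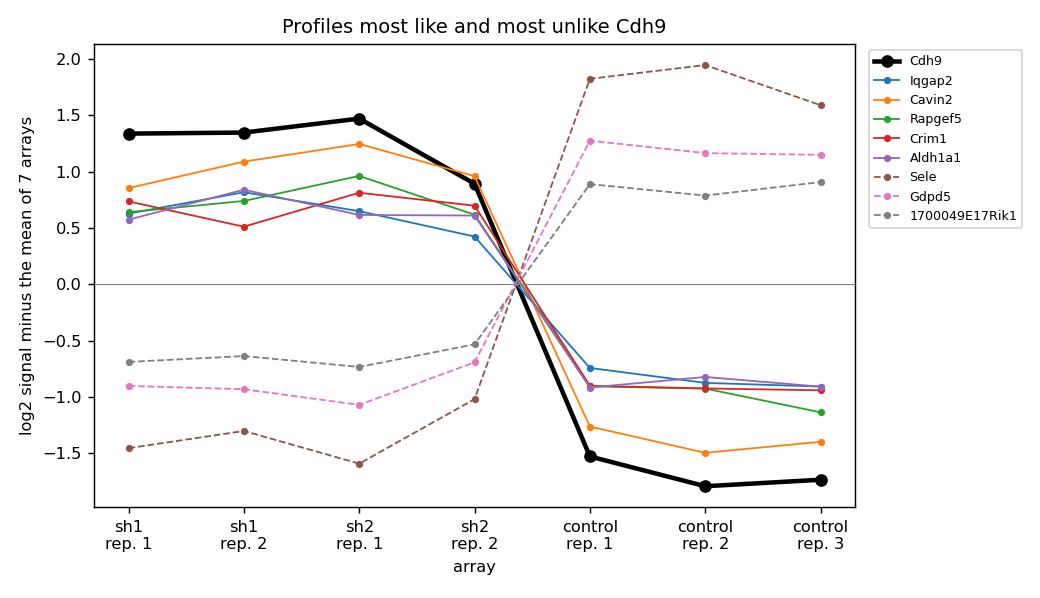
Log2 signal minus the gene's mean over 7 arrays (vertical axis) on each array (horizontal axis) for Cdh9 and the 5 most like and 3 most unlike genes. Lines only join the points of a gene. Cdh9 and the 5 genes with r of 0.987 or more lie above 0 on the 4 shSnail arrays and below 0 on the 3 control arrays, and Sele, Gdpd5 and 1700049E17Rik1 the other way round.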

How the data were processed

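RNA from HM-1-shSnail (sh1 and sh2) and HM-1-control cells was read on 7 Affymetrix arrays. The deposited values are log2 signals per transcript cluster, for which the authors used Expression Console and Transcriptome Analysis Console of Affymetrix. Background correction, probe summary and genome build are not stated in the paper or labels. No further normalization was applied, and 0 value columns were left unused.

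Members were matched to clusters with that symbol alone, taking the highest mean where several existed. Groups were compared with limma 3.58.1 in R 4.3.3 by lmFit and eBayes. P-values were adjusted by Benjamini-Hochberg across the 65770 clusters, with a threshold of 0.05: shSnail against control in 2 groups, each hairpin in a fit of 3. The number of arrays limits the precision. The fits were tested on simulated data. Companion genes were named by adjusted p, up to 4 a list, or by the largest change where none passed. The members and lists were chosen with earlier results of these data known. Listed genes without a cluster of their own were not analysed here. Alternatives were other groups, a replicate block, filters, scalings, variance models, an analysis of variance and leaving out each array.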

Additional observations from a re-analysis of the deposited data

Results flagged for a closer look

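In 8 of 19 genes looked at, 1 of the 4 shSnail arrays stood far from the other 3 by Dixon's criterion. Chance meets it in about 1 in 20 groups of values without ties. The gap is given as a share of the range. In 5 cadherin genes the share was 1.0, because the other 3 shSnail values were equal to one another, so that the criterion was met by the ties and the chance rate does not apply: Cdh1 (3.73) and Cdh2 (4.72) were lowest on the second sh2 array, Cdh10 (4.09) was lowest on the second sh1 array, and Cdh11 (5.76) and Cdh13 (9.07) were highest on the first sh2 array. The ranges were 0.04 to 0.10 on the log2 scale. Ajuba was highest on the second sh2 array, with a share of 0.876 of a range of 0.61. Pvr was lowest on the second sh1 array (0.843 of a range of 0.11). Elf3 was lowest on the second sh2 array (0.968 of a range of 0.27).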

How the results depend on the processing

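Of 696 alternative values of the 10 genes, 664 were the same, 27 newly passed, 3 moved and 2 passed in the other direction. Same means that a value kept its side of the threshold. For Cdh9 against control, which was not tested, it means a shift smaller than the SD within groups, and moved a larger one. In 14 the sign differed, for values reported at 0.16 or less in size. The 3 are all Cdh9 with sh2, at 2.56 with arrays centred on their negative controls, 2.58 without the first sh2 array and 3.16 without the second. Centring on the negative controls shifted the median of all clusters by -0.21 for shSnail, -0.10 for sh1, -0.31 for sh2 and -0.21 for sh2 against sh1. Under it Cdh11 and Cdh13 with sh2 turned to -0.29 and -0.19, 9 of the 9 genes passed for sh2 (8 lower), 1 each passed for shSnail and sh1, and 6 for sh2 against sh1. Elsewhere the count of members passing was 1, always Cdh5, for shSnail in a fit of 3 groups, for sh1 with the filter at the 40th percentile, 1-symbol clusters, quantile normalization, centring on clusters or array weights, and for sh2 with the filter, quantile normalization or centring on clusters. It was also 1 for sh1 and for sh2 without clusters equal on all arrays, an alternative chosen after seeing the data. With 1 array left out it was 0 to 1 for sh2, the 1 being Cdh2 at -0.10 (adjusted p = 0.034) without the first sh2 array, where the lone sh2 array is assumed to vary like the other groups. The 4 companion genes that passed became 11 with negative-control centring, 1 by analysis of variance and 0 to 1 with 1 array left out. The labels give only shared replicate numbers, and deviations of same-numbered arrays correlated at -0.21 to 0.157, so the arrays are not shown to be paired; with the replicate block 0 companions and 8 of all clusters passed for shSnail, against 4 and 422 as reported. With 1 array left out, the count of all clusters was 91 to 176 for shSnail, 1 to 539 for sh1 (88 as reported), 8 to 3625 for sh2 (846) and 0 to 2078 for sh2 against sh1 (0), so the shares of clusters called move with single arrays. The cause was not tested. Each member had 1 cluster, so another cluster could not be tried.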
